A study of Mus musculus with 4 samples.

Results

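The cytoplasmic ribosomal proteins of the mouse heart were taken from the 23420 gene symbols listed in each library as all symbols that start with Rpl or Rps followed by a number, together with Rpsa and Rplp0 to Rplp2, leaving out the S6 kinases. This gave 86 genes, of which 52 are named for the large subunit and 33 for the small subunit. The remaining gene, Rps19bp1, is named for its binding to Rps19 and is not a protein of the ribosome. It was at 3.75 to 4.37 CPM and is counted among the members tested. All 4 libraries form 1 group: polyadenylated RNA of wild-type C57BL/6J mice, labelled male and 12 weeks old, with no treatment or transgene. The tissue label names the whole heart, whereas the protocol describes the ventricular apex. There is therefore no contrast between conditions, and the measurements are the levels of the members, their ratios within a library and their spread between libraries.

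Each ribosome joins a small subunit, which reads the mRNA, to a large subunit, which forms the peptide bond, and each subunit carries a fixed set of proteins on its ribosomal RNA. In vertebrates most ribosomal protein mRNAs begin with a run of pyrimidines, the 5′ terminal oligopyrimidine (TOP) tract, through which the kinase mTOR and the protein Larp1 control their translation. Striated muscle is known for a second form of the large subunit protein Rpl3, named Rpl3l, that can take the place of Rpl3 beside the peptidyl transferase centre. Ribosomal protein genes have also left many processed pseudogenes in the genome, copies of the spliced mRNA that are close to identical to their source.

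These copies bear on every value below, because reads that aligned equally well to several places were not counted. The stretch below shows the problem for the pair of greatest interest. It is a run of 90 bases of coding sequence, bases 301 to 390 from the start codon of the Rpl3 transcript in GENCODE M21, printed 5′ to 3′ beside the matching stretch of its processed pseudogene Rpl3-ps1 and of Rpl3l. Capitals mark the bases that differ from Rpl3.
Rpl3: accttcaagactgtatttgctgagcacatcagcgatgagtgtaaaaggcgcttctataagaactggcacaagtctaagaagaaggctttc
Rpl3-ps1: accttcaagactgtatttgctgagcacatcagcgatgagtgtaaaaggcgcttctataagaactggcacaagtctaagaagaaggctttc
Rpl3l: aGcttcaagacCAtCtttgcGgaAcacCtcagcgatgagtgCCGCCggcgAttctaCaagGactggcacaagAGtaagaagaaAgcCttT
The pseudogene differed from Rpl3 at 0 of these bases and Rpl3l at 20. A read from this stretch of Rpl3 could therefore be placed on either of the identical copies, whereas a read from Rpl3l could not.

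The second set of sequences shows the annotated start sites. Each is a 60-base piece of RefSeq promoter sequence on GRCm38.p6, printed 5′ to 3′ on the gene's own strand, with 40 bases before the annotated start and 20 from it onward. Capitals mark a TOP-like tract, searched on the gene's strand only as a C followed by at least 4 bases that are each C or T, beginning within 5 bases of the annotated start. They are shown for Rps6, the small subunit protein phosphorylated downstream of mTOR, for Rpl15, Rps18, Rps9 and the stalk protein Rplp2, and, without a tract in this window, for Rplp0 and for both annotated starts of Rpl3l.
Rps6 at chr4:86857348-86857407, minus strand: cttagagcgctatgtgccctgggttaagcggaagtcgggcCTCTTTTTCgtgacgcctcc
Rpl15 at chr14:18270967-18271026, minus strand: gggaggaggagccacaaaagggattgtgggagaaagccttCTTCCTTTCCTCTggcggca
Rps18 at chr17:33955646-33955705, minus strand: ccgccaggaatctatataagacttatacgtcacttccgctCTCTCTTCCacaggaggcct
Rps9 at chr7:3704001-3704060, plus strand: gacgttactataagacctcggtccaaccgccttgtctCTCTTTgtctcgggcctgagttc
Rplp2 at chr7:141447611-141447670, plus strand: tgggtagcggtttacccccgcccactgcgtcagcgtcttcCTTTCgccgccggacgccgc
Rplp0 at chr5:115559427-115559486, plus strand: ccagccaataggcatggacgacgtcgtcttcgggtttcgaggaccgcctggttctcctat
Rpl3l, start 1, at chr17:24727786-24727845, plus strand: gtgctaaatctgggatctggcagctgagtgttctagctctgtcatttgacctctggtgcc
Rpl3l, start 2, at chr17:24732645-24732704, plus strand: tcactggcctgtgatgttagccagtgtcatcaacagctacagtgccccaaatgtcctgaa
Promoter sequence was matched for 65 of the 86 members, and Rpl3 is named only. A tract by this definition began within 5 bases of a start for 29 of the 65 members (44.6%), against 21.2% of 27025 genes. At the annotated base itself the shares were 20% of members and 3.01% of all genes. A match of letters is a description of the sequence, and the start sites used in these hearts were not measured here.

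Gene counts per library ran from 10523709 to 15359296, and 3 counts, the most that a count of 0 allows, were worth between 0.195 and 0.285 CPM (counts per 1000000 gene counts). Intervals and floors cover counting error only. Defining genes of heart muscle cells were high in all 4 libraries, their 5 markers summing to 81820 ± 5194 CPM (SD, n = 4), while the liver gene Alb and the lung markers were at 0. Markers of fast skeletal muscle other than Ckm, which heart muscle also expresses, were near 0, with Mylpf at 6 to 12 counts. Libraries 2 and 3 go against the male label: Xist, the RNA of the inactive X chromosome, held 1897 and 1806 counts there and 5 and 19 in libraries 1 and 4, while the Y-linked Ddx3y held 0 and 1 against 341 and 437. No label states that the libraries are from 4 different animals, so the p-values measure only the spread between these samples.

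Ribosomal protein mRNAs made up a small share of the counted RNA of these hearts, 1.09-fold apart between the highest and lowest library. The 86 members summed to 15619 CPM in library 1, 14857 in library 2, 16214 in library 3 and 15525 in library 4. The sum was lowest in library 2 and highest in library 3, and libraries 1 and 4 lay close together. Its mean of 15554 ± 556 CPM corresponded to 1.56 ± 0.0556% of gene counts (SD, n = 4). In bulk tissue, fewer cells of a type and less RNA per cell cannot be told apart. Large subunit members gave 9282 ± 347 CPM of this and small subunit members 6268 ± 211 CPM. The 10 most abundant members by CPM held 28.6 ± 0.604% of the sum, so no few genes carried it.

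Levels between genes were compared per kilobase of exon, as CPM divided by the summed length of the annotated exons. Among the 79 ribosomal proteins with a mean of at least 1 CPM, the median level was 91.9 CPM per kb and the quartiles were 45.1 and 162 CPM per kb, a 3.60-fold range. By comparison, all 12358 genes at or above 1 CPM had a median of 3.62 CPM per kb. A total of 44 of the 79 lay within a factor of 2 of their own median. The proteins of a subunit are present in equal number in the ribosome, with the paired stalk proteins as the exception. These mRNA levels, by contrast, ran from 0.592 to 831 CPM per kb. The lowest, Rpl22l1, is a second form of Rpl22, and other second forms are among the 79. The full range is therefore not that of the usual forms alone, and it includes the effect of uncounted reads.

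**Figure D1:**
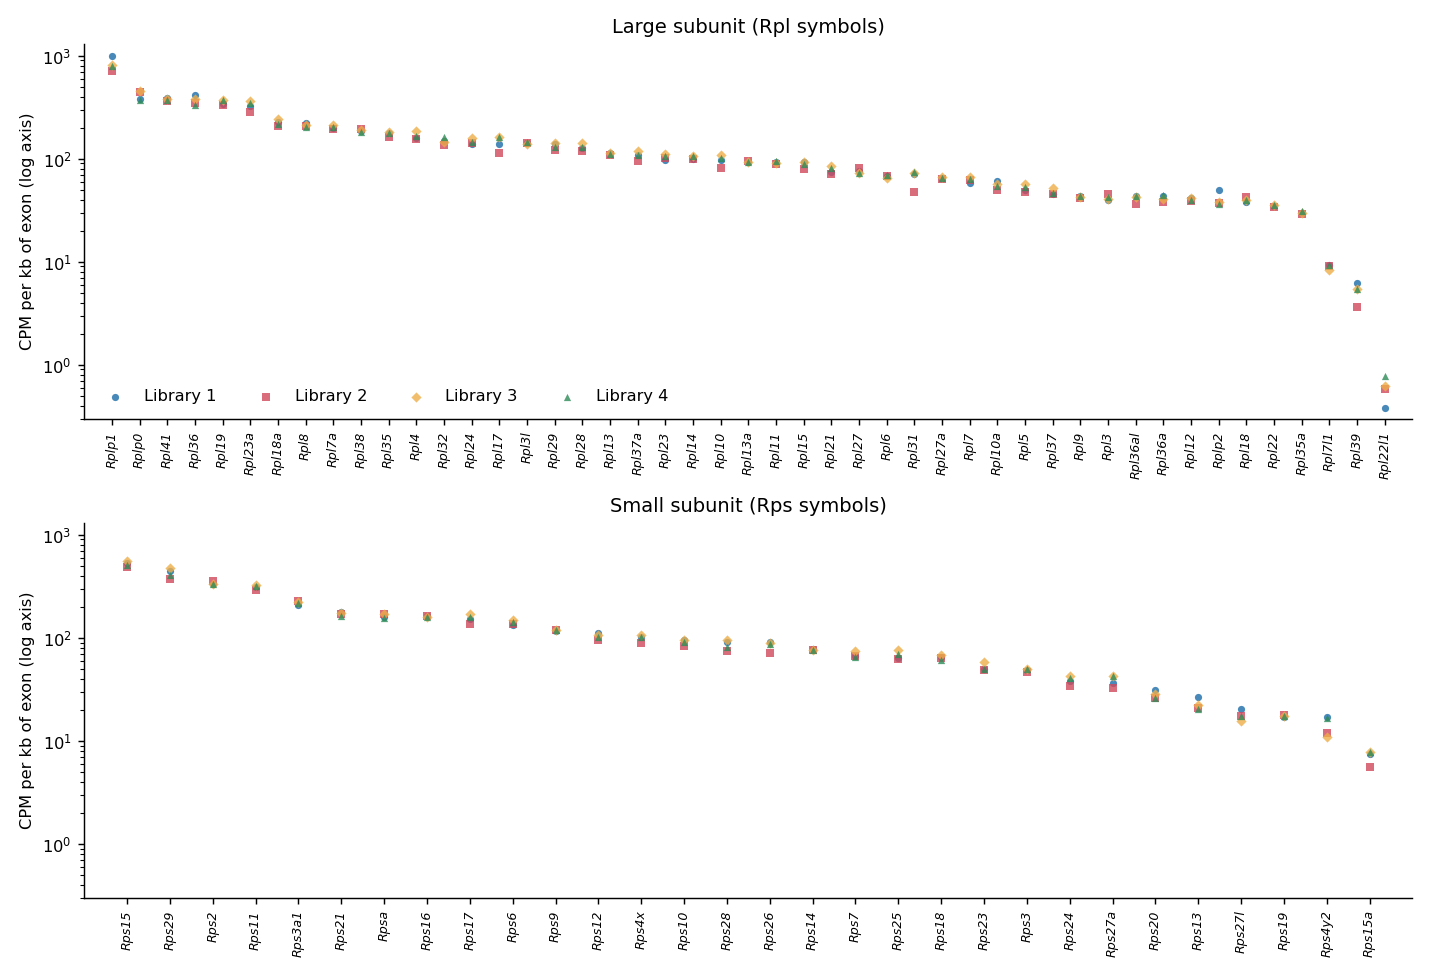
Level of 77 ribosomal protein mRNAs of at least 1 CPM in each of 4 libraries, in CPM per kb of exon on a log axis, for large (top) and small (bottom) subunit symbols ordered by mean. Points of 1 gene lie close together, from Rplp1 at a mean of 831 to Rpl22l1 at 0.592 CPM per kb.

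The 6 highest per kilobase were Rplp1 at 831 ± 118 CPM per kb, Rps15 at 520 ± 28.2, Rps29 at 425 ± 41.6, Rplp0 at 415 ± 42.2, Rpl41 at 378 ± 10.2 and Rpl36 at 371 ± 38.0 (SD, n = 4). Rplp1 was highest in every library. Rps29, Rplp0, Rpl41 and Rpl36 were separated by less than the sum of the SDs of neighbours in that order, so their ranks are not resolved. The 6 lowest were Rps19 at 17.5 ± 0.367, Rps4y2 at 14.1 ± 3.18, Rpl7l1 at 8.96 ± 0.476, Rps15a at 7.17 ± 1.04, Rpl39 at 5.18 ± 1.08 and Rpl22l1 at 0.592 ± 0.165 CPM per kb. Several of these are second forms of other members. Rps15a and Rps19 have long annotated exons, 6270 and 4685 bases in all, which lower a value per kilobase. The plot of levels by subunit shows that the low end falls away from the bulk while the high end runs on smoothly from it.

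Whether large and small subunit members differed in median level depended on the length used. The medians were 92.8 ± 1.99 CPM per kb over 47 large subunit members and 88.8 ± 6.69 over 32 small subunit members. The difference of the median log2 levels was 0.07 ± 0.09 (large minus small, SD, n = 4), within the libraries' spread. Per kilobase of the longest transcript it was -0.039 ± 0.062, also within it. Per kilobase of the principal transcript it was -0.36 ± 0.02 and per kilobase of unshared windows -0.27 ± 0.06, both larger than the spread and with the small subunit higher.

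Rpl3l, the muscle form, was expressed at a level usual for a ribosomal protein mRNA of these hearts and was the steadiest of them relative to genes of like abundance. The gene lies at chr17:24727820-24736143 on the plus strand in GENCODE M21 on GRCm38, 5890 bases from the gene of the small subunit protein Rps2. It had 3379, 3283, 2402 and 3629 counts in libraries 1 to 4, which is 234, 236, 228 and 236 CPM. The 4 values were nearly level, with library 3 lowest. Its coefficient of variation (CV, the SD over the mean) was 1.59%, where the counting error at these counts alone is 1.80%. Its variance ratio, the gene's spread divided by that fitted for genes of like abundance, was 0.0180. That ratio was the lowest of the 80 members tested, and 0.397% of all tested genes had a lower one. At 142 ± 2.27 CPM per kb, Rpl3l ranked 26 of 79 ribosomal proteins, above their median of 91.9. Per kilobase of the principal transcript it lay below the median, at 170 against 185.5 CPM per kb, and per kilobase of unshared windows at 176 against 368.

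Rpl3 itself, on the minus strand at chr15:80077791-80091868, had 1826, 2021, 1372 and 2066 counts, or 127, 145, 130 and 135 CPM. It was highest in library 2 and lowest in library 1, and no value reached those of Rpl3l. The count ratio of Rpl3l to Rpl3 was 1.74-fold, a mean log2 of 0.80 ± 0.08 (SD, n = 4), and Rpl3l was higher in 4 of 4 libraries. The two-sided exact sign-flip permutation test gave p = 0.125, also after Benjamini-Hochberg adjustment over the 8 pairs of forms compared, which is the smallest p that 4 libraries allow. Rpl3l held 63.5 ± 1.24% of the counts of both genes, between 61.9% in library 2 and 64.9% in library 1. Per kilobase of exon the ratio was 3.37-fold in favour of Rpl3l.

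Which of these mRNAs was higher depended on how shared sequence was treated. Of the 50-base windows of the Rpl3 transcript, 85.6% also occur exactly in transcripts of other annotated genes, and 26 pseudogenes share such a window. Rpl3-ps1, at chrX:13202571-13203780, holds 81.5% of them. Of the windows of Rpl3l, 0% occur elsewhere. When each gene's counts were divided by the number of its windows found nowhere else, the ratio reversed to a log2 of -2.02, with Rpl3l 4.05-fold lower. That scaling assumes that no read from a shared window was counted, which the files do not show. Over 1208 aligned bases of coding sequence, Rpl3l and Rpl3 were 74.4% identical.

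**Figure D2:**
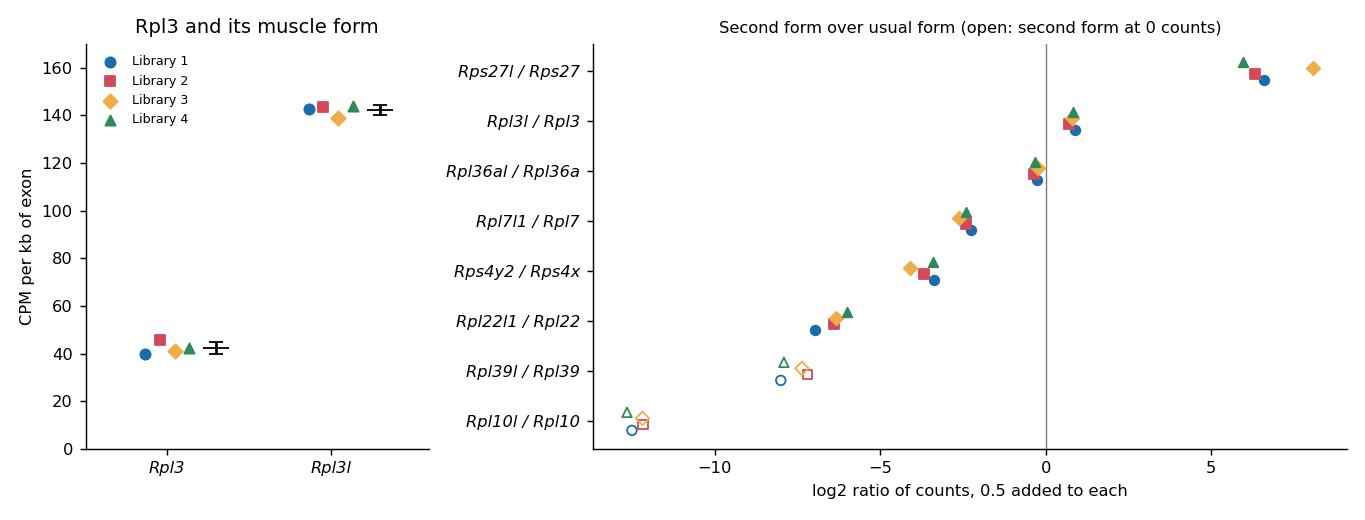
Left, Rpl3 and Rpl3l in each library in CPM per kb of exon, with the mean and SD of 4 libraries; right, log2 count ratio of each second form to its usual form per library, with no correction for length, and open symbols where the second form had 0 counts. Rpl3l lies above Rpl3 in 4 of 4 libraries, and of the other pairs Rps27l alone lies to the right of 0.

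The other second forms had lower counts than their usual forms, apart from Rps27l. Each of these pairs had the same sign in 4 of 4 libraries and the same p of 0.125 by the exact sign-flip permutation test, so the sizes are given, each of which depends on the length used. Rpl22l1, a form of the large subunit protein Rpl22, had 11, 16, 13 and 24 counts, against 1453, 1388, 1085 and 1575 for Rpl22. The count ratio was 86.1-fold lower, a log2 of -6.43 ± 0.41. Per kilobase of the principal transcript it was 23.2-fold lower, and per kilobase of unshared windows 7.85-fold. Rpl7l1, which is related to Rpl7 and is also listed among ribosome assembly factors, was at 32.3, 31.7, 28.9 and 32.5 CPM and 5.35-fold lower than Rpl7 by counts, or 23.9-fold lower per kilobase of unshared windows. Both pairs kept their order under each of the lengths tried.

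Forms known chiefly from testis were not detected. Rpl10l and Rpl39l had 0 counts in each of the 4 libraries. The usual form Rpl26 also had 0 counts in each, so a count of 0 here does not by itself show that an mRNA is absent. Against the floor of 3 counts per library, the counts of Rpl10l were at least 767-fold lower than those of the X-linked Rpl10. The counts of Rpl39l were at least 24.3-fold lower than those of Rpl39, a looser bound because Rpl39 itself had only 128, 73, 82 and 120 counts.

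Rpl36al and Rpl36a encode nearly the same protein of the large subunit, and their coding sequences were 87.9% identical. Rpl36al was at 59.2, 49.7, 57.6 and 59.1 CPM and Rpl36a at 71.3, 63.0, 67.7 and 73.8 CPM. Both were lowest in library 2, and their count ratio was nearly constant at a log2 of -0.29 ± 0.05. Per kilobase of exon the difference vanished, at 1.0-fold, whereas Rpl36al was 3.23-fold lower per kilobase of the principal transcript and 17.9-fold lower per kilobase of unshared windows.

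For Rps27l, a relative of the small subunit protein Rps27, the counts were the higher ones, but the pair gives no order of the mRNAs. It had 239, 198, 135 and 216 counts, while Rps27 had 2, 2, 0 and 3. The pooled count ratio was 112.6, with a 95% exact interval of 54.4 to 281. Of the windows of Rps27, 98.6% occur in transcripts of other genes, the highest share of all members, and 4 windows were unshared. Scaled to unshared windows, the log2 ratio was 0.28 in place of 6.73. Rps4y2, whose current symbol is Rps4l and which GENCODE M21 lists as a transcribed processed pseudogene, was 12.4-fold lower by counts than the X-linked Rps4x, or 36.8-fold lower per kilobase of unshared windows. It was at 16, 11.4, 10.2 and 15.8 CPM, lowest in library 3 and next lowest in library 2.

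Beside Rpl10l and Rpl39l, 4 more members lay under 1 CPM. Rpl26 had 0 counts in each library, Rpl30 had 5, 17, 9 and 15, Rpl34 had 7 in each, and Rps27 is described above. These are proteins found in every ribosome, and the median tested member stood at 181 CPM. Their shares of windows found in transcripts of genes at other loci were 61.0% for Rpl26, 29.7% for Rpl30, 37.9% for Rpl34 and 98.6% for Rps27. A further part of Rpl30, which brings its share to 79.2%, is shared with D730044K07Rik, a gene that overlaps it. Rpl26, Rpl30 and Rpl34 thus had windows that no other annotated transcript holds and still read at or near 0. The counts of these 4 genes are given as listed, and no order of mRNA levels was drawn from them.

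Shared sequence was the rule among the members. Of the 85 ribosomal proteins, 82 had at least 1 window of 50 bases in a transcript of another gene and 41 had at least 50% of their windows there. The median share was 49.3%, with quartiles of 28.4% and 72.2%. Some of this sharing is with a gene that overlaps the member at its own locus, where a read still has 1 place in the genome. Counting only genes at other loci, 82 members shared a window, 33 shared at least 50% of them, and the median share was 41.8%. For 11 members the share fell by 10 percentage points or more. Rpl3l and Rpl39l were among those with none. The 8 highest were Rps27, Rpl35 at 95.1% (40.1% at other loci and 59.0% with the overlapping Wdr38), Rpl5 at 93.8% (48.5% at other loci), Rpl9 at 93.3%, Rpl10a at 88.1%, Rps18 at 86.7%, Rpl23a at 85.7% and Rpl3.

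Level and sharing were only weakly related across the members. Rpl9, with 93.3% of its windows at other loci, was at 134, 127, 130 and 135 CPM. Rps18, with 86.7%, was at 159, 157, 165 and 149 CPM. Rps27, with 98.6%, was at 2, 2, 0 and 3 counts. Members with most windows shared thus differed widely in level. Rpl9 and Rps18 lay below the median tested member of 181 CPM. Rpl23a, with 82.6% of its windows at other loci, and Rpl7a, with 81.2%, lay above it, at means of 279 and 361 CPM. Across the 79 members of at least 1 CPM, Spearman's rho between the shared percentage and the level per kilobase was 0.166, given as a description because members share libraries and length models. Over all 85 members and with only genes at other loci, it was 0.196. Among these 85, members with under 30% of windows at other loci (n = 25, of which 3 were under 1 CPM) had a median of 41.7 CPM per kb. Those with 30 to 60% (n = 34, 1 under 1 CPM) had 86.8, and those with 60% or more (n = 26, 2 under 1 CPM) had 107.5 CPM per kb. Alignments that were not unique made up 8.33 ± 0.147% of all counts listed, with and without a gene, 5.90 ± 0.194 times the summed counts of the members. Whether 1 read could enter them more than once is not stated. How many of them came from these genes is not shown by the files.

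**Figure D3:**
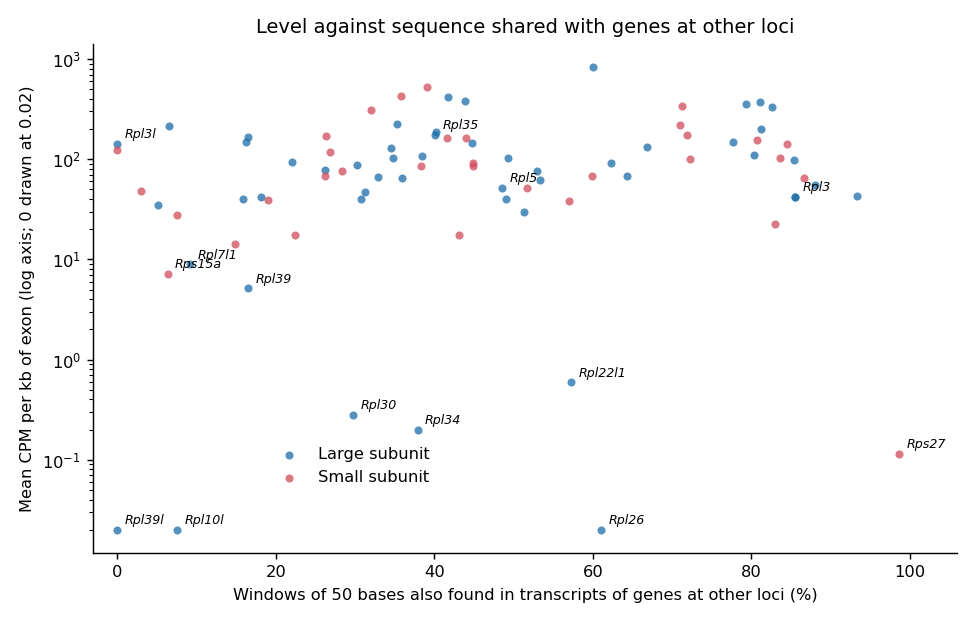
Mean level in CPM per kb of exon (log axis, 0 drawn at 0.02) against the percentage of 50-base windows of each of 85 ribosomal protein transcripts found in transcripts of genes at other loci. The main cloud does not fall from left to right, and the near-zero members Rpl26, Rpl30, Rpl34 and Rps27 lie between 29.7% and 98.6%.

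Each member was then tested for a spread between the 4 libraries above that of other genes of like abundance. With edgeR's quasi-likelihood fit and Benjamini-Hochberg adjustment over all genes tested, 0 of the 80 tested members were called, against a background of 0.445% (55 of 12358 genes). At an unadjusted p under 0.05 there were 7 members, 8.75%, against 6.0% of all genes. They were Rpl10, Rpl17, Rpl31, Rplp1, Rplp2, Rps15a and Rps4y2. With limma 0 members were called, against 0.413% of all genes, and with the dispersion outliers of DESeq2 0, against 1.04%. Without the filter on low counts 1 was, Rpl31 at an edgeR adjusted p of 0.0146, against 1.48% of 17447 genes. Libraries 1 and 4 were also fitted alone, a choice made after their sex-linked transcripts were seen. There 2 were called, Rplp1 and Rplp2, at edgeR adjusted p of 0.0282 and 0.00378, against 0.0486% of all genes. That fit rests only on the difference between these libraries. The median variance ratio was 1.09 over the members and 0.852 over all genes tested. The median CV was 6.20% over the members and 9.59% over all genes, many of which have lower counts. A CV under 10% was found for 64 of 80 members (80%) and 52.3% of all genes.

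**Figure D4:**
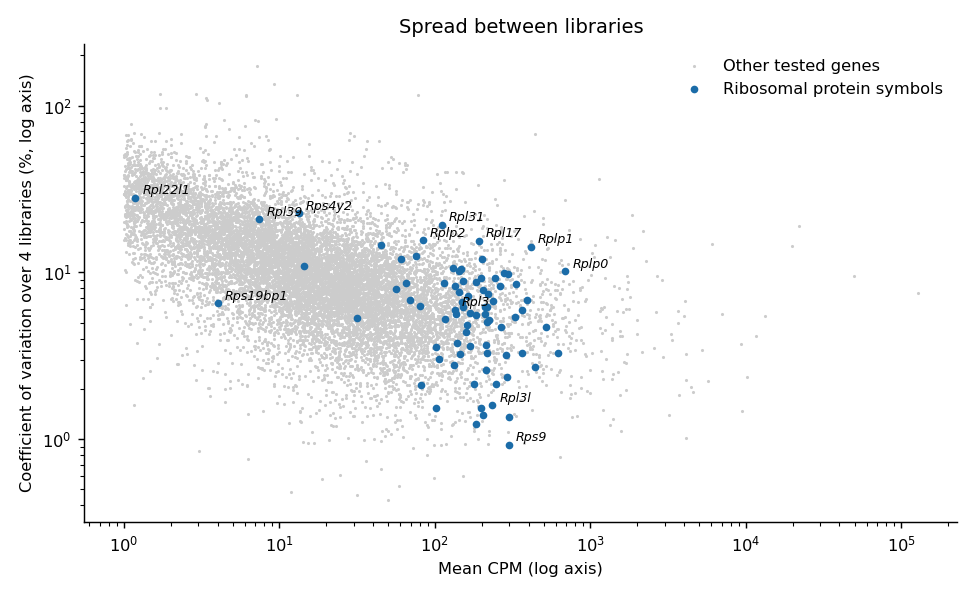
CV over 4 libraries against mean CPM (both log axes) for 12358 tested genes, with the 80 tested members in blue. Members lie within the cloud of other genes of their abundance, from Rps9 at 0.926% and Rpl3l at 1.59% up to Rpl31 at 19.3% among members above 100 CPM.

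Among the steadiest members by CV were Rps9 at 0.926%, Rps14 at 1.22%, Rps16 at 1.40% and Rpl13a at 1.53%. Rps9, which lies at the mRNA entry side of the small subunit, was at 296, 302, 298 and 301 CPM. Its variation was below the 1.59% that its counts alone would give.

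The stalk of the large subunit, the flexible arm that recruits translation factors, held 3 uneven members and 1 steady one. It is built on Rplp0, which carries pairs of Rplp1 and Rplp2, and Rpl12 lies at its base. Rplp1 was at 496, 354, 408 and 401 CPM, highest in library 1 and lowest in library 2. Rplp2 was at 103, 77.2, 78.9 and 75.2 CPM, with library 1 apart from the other 3. Rplp0 ran otherwise, at 636, 744, 755 and 622 CPM, high in libraries 2 and 3, with no overlap with libraries 1 and 4. Of the 80 members, 6 had both of libraries 2 and 3 above the other pair (7.5%, against 15.6% of all genes), so this arrangement was no more frequent among members than elsewhere. Rpl12 was steady at 145 ± 4.68 CPM.

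Rplp1 and Rplp2, which pair as proteins, were both highest in library 1, and their count ratio was 4.81, 4.59, 5.17 and 5.33. Their order differed among the remaining libraries, with Rplp1 lowest in library 2 and Rplp2 in library 4. The count ratio of Rplp0 to Rplp1 was 1.28, 2.10, 1.85 and 1.55, a range of 1.64-fold. Variance ratios were 5.94 for Rplp1, 5.41 for Rplp2 and 3.82 for Rplp0, with edgeR adjusted p of 0.617, 0.662 and 0.878. Without library 1 the ratios of Rplp1 and Rplp2 fell to 1.47 and 0.219, so library 1 alone sets them apart. Their shares of shared windows were 60%, 30.7% and 41.8%.

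Rpl31, a protein at the rim of the exit tunnel where the new peptide leaves, had the largest variance ratio of all members, 11.1 (edgeR adjusted p = 0.266). It was at 118, 78.7, 121 and 124 CPM, so library 2 lay well below the other 3. Without library 2 its variance ratio was 0.198. Parts of its exons, 25.3% of the bases, overlap those of the neighbouring gene Tbc1d8, and the libraries do not keep the strand. Rpl17, another tunnel protein, was at 185, 152, 213.5 and 215 CPM, again lowest in library 2, with a variance ratio of 7.27 and an edgeR adjusted p of 0.503. Rps15a was at 46.9, 35.3, 48.9 and 48.7 CPM and Rps27a, made as a fusion with ubiquitin, at 72.0, 64.2, 83.4 and 83.5 CPM. Both were lowest in library 2 as well.

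A low value in library 2 was common to the members. Of the 80 tested, 50 were lowest there (62.5%), against 30.7% of all genes tested. In library 3, 36 were highest (45%), against 22.9%. The median member stood at 1.0, 0.951, 1.04 and 1.0 times its own mean in libraries 1 to 4, and the median tested gene at 1.0, 0.995, 0.983 and 1.01. By unscaled CPM, library 3 was thus the lowest of the 4 for the median gene and the highest for the median member. With TMM scaling the median gene was level, at 0.996 in both libraries 2 and 3, and the median member stood at 0.951 and 1.05 there. The 5 members lowest in library 3 (6.25%, against 33.4% of all genes) were Rpl3l, Rpl6, Rpl7l1, Rps27l and Rps4y2. Of these, 4 are second forms. The other tested second forms were lowest elsewhere, Rpl22l1 in library 1 and Rpl36al in library 2. For Rpl3l, library 3 lay only slightly lower, at 228 CPM against 234 to 236. The 10 members highest in library 2 (12.5%, against 28.5%) were Rpl13a, Rpl18, Rpl27, Rpl3, Rpl38, Rps16, Rps19, Rps2, Rps3a1 and Rps9.

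Other measures moved with these libraries. Rn45s, the entry for the ribosomal RNA precursor, took 12.8, 14.1, 11.9 and 12.3% of gene counts, highest in library 2 and lowest in library 3. With Rn45s left out of the total, 41 of 80 members were still lowest in library 2 (51.2%, against 26.0% of all genes), and the sums became 17911, 17287, 18395 and 17699 CPM. With TMM scaling, 48 were lowest there (60%, against 31.1%). The 5 heart muscle markers, each above 0, summed to 79576, 79324, 89594 and 78784 CPM, highest in library 3. Myh6, the main heart myosin, carried this difference: the other 4 summed to 32040.5, 30871, 32621 and 32117 CPM. Library 3 also had the fewest gene counts. The part of these differences in the members' order was not tested.

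**Figure D5:**
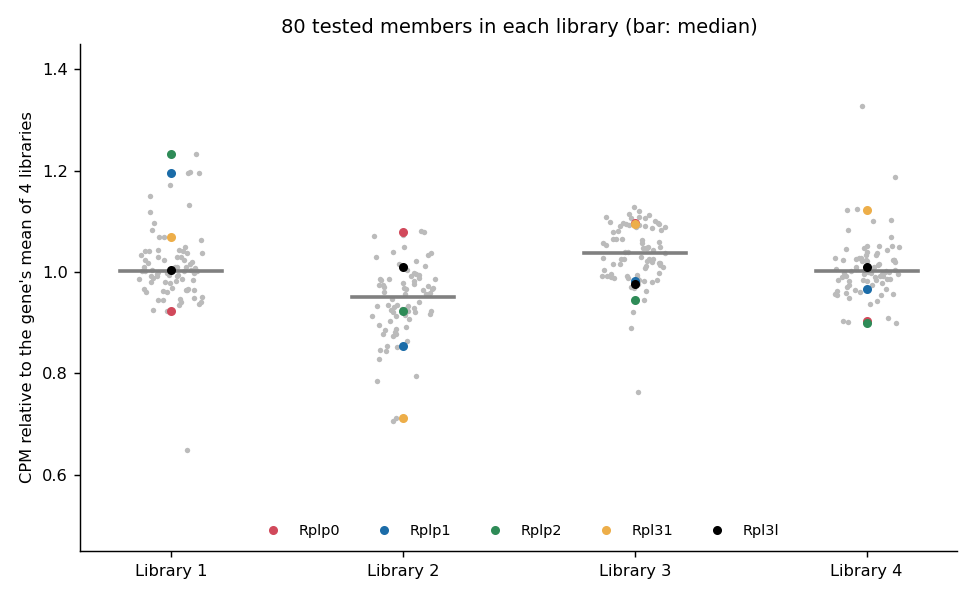
CPM of each of the 80 tested members relative to its own mean of 4 libraries, by library, with a bar at the median and 5 members in colour. The bar is lowest in library 2 (0.951) and highest in library 3 (1.04), Rpl3l stays near 1, Rplp1 and Rplp2 stand high in library 1, and Rpl31 low in library 2.

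The other named roles are given by their levels. Rpl5 and Rpl11, which bind the 5S ribosomal RNA and can hold the p53 regulator Mdm2, were at 203 ± 15.8 and 248 ± 5.33 CPM. Rps6 was at 211, 217, 237 and 227 CPM, highest in library 3 and lowest in library 1. Along the mRNA path of the small subunit, the 7 tested members had a median of 85.1 CPM per kb, from Rps3 at 48.6 to Rps15 at 520. Of these 7, 0 were called, against 0.445% of all genes, a share at which so few genes would hardly hold a call. Rps28, of this path, was at 156, 128, 162 and 140 CPM, again lowest in library 2.

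The 4 X-linked members are of interest because libraries 2 and 3 differ from libraries 1 and 4 in Xist. Rpl10 was at 202, 165, 221 and 210 CPM, and Rps4x at 166, 146, 174 and 167 CPM. Rpl39 was at 8.88, 5.24, 7.79 and 7.81 CPM, and Rpl36a is given above. In each of the 4 genes library 2 was lowest, as it was for 62.5% of all tested members and 30.7% of all genes. The 4 genes summed to 447, 380, 470 and 458 CPM, so the libraries with Xist held both the lowest and the highest sum, which Rpl10 and Rps4x carry. Rpl36a and Rpl39 were lower in both of libraries 2 and 3 than in libraries 1 and 4, as were 10 of the 80 tested members in all (12.5%, against 23.7% of all genes). For Rpl39, however, libraries 3 and 4 were nearly equal, at 7.79 and 7.81 CPM.

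Some ribosomal proteins carry other symbols in the files. Fau, a ubiquitin-like fusion with a small subunit protein, was steady at 157 ± 1.46 CPM (SD, n = 4), and Gnb2l1, which encodes Rack1, at 279 ± 6.76 CPM. Per kilobase of exon Fau reached 163 and Gnb2l1 54.5 CPM per kb, both within the range of the members.

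The genes that make, carry and regulate ribosomal proteins stood lower per kilobase, and none was called. Of 32 tested ribosome assembly genes, 0 were called, and their median was 8.37 CPM per kb; the nucleolar protein Ncl led at 214 ± 11.4 CPM. Of 12 carriers that escort ribosomal proteins into the nucleus, led by Ipo5, 0 were called, with a median of 7.41 CPM per kb. Of 20 other mRNAs known for a TOP tract, 0 were called, and their median was 36.5 CPM per kb. The leading one, the elongation factor Eef2, was at 2152, 2203, 2230 and 2065 CPM. Of 17 controllers of these mRNAs, mTOR and Larp1 among them, 0 were called by edgeR and 2 had an unadjusted p under 0.05. The 8 tested readers of ribosome stress, such as Mdm2 and Trp53, gave 0 calls. In the assembly, carrier, TOP and stress lists 0 genes had an unadjusted edgeR p under 0.05. Over all genes tested, 0.445% were called and 6.0% had an unadjusted p under 0.05. Lists this short would hold few or no calls at that share, so the absence of calls does not set them apart. The 6 pseudogene symbols listed in the files summed to 1.27 ± 0.319 CPM and none reached 1 CPM.

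Proteins of the mitochondrial ribosome, a separate particle that makes subunits of the respiratory chain, gave a reference for the members. All 76 were tested and 0 were called by edgeR, with 3 at an unadjusted p under 0.05. The shares over all genes were 0.445% and 6.0%. Their median was 14.1 CPM per kb and their sum 3032, 2940, 2893 and 3068 CPM, a mean of 2983 ± 81.0. This sum was lowest in library 3, where that of the cytoplasmic members was highest. By the same unscaled CPM the median tested gene was also lowest in library 3, at 0.983 times its own mean. The difference between these lists was described and not tested.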

How the data were processed

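The authors deposited 1 file per library with raw read counts by gene symbol, as the whole-number values show. Per the submitters' processing notes, the build was mm10 and the tools included TopHat2 2.0.10, Bowtie2 and HTSeq, with no role stated. Per the labels' protocols, the libraries were single-end, from oligo(dT)-selected RNA and without strand. In the sources used here, annotation, counting mode and read length are not given. The 5 entries that name no gene were left out of library sizes. They held the non-unique alignments, 8.33% of all counts listed, and ambiguous reads, 0.824%.

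Symbols were matched to GENCODE M21 (23053 of 23420, 98.4%, of them 1276 by a synonym). CPM was computed per library without scaling factors. The spread test was run in R 4.3.3 with edgeR 4.0.16, fitting only an intercept with TMM factors and a robust quasi-likelihood prior, on genes of at least 1 CPM on average. Variance ratios were compared with the upper tail of an F distribution, and an adjusted p under 0.05 was called. On simulated data for this test (12358 genes, 3 simulations) the recovered share was 37.3% at 2-fold changes, 88.6% at 4-fold and 100% at 8-fold. DESeq2 1.42.0 and limma 3.58.1 served as alternatives. Pair ratios used counts with 0.5 added. Windows of 50 bases of each principal transcript were sought, exactly and on both strands, in annotated transcripts of other genes.

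Members and lists were chosen with earlier results of these data known. Named genes are both genes of each pair, members under 1 CPM, the 6 highest and 6 lowest per kilobase, the 10 with the largest variance ratio, the 5 with the smallest CV, the 8 with the most shared windows, the stalk, 5S, Rps6, ubiquitin-fusion and X-linked members, leading genes of the other lists, and tissue checks. Members named for being lowest or highest in a library, and others outside this rule, were chosen after their values were seen. Some genes that the rule takes, and 1 variant of the summed level that needs such a gene, are not reported here.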

Additional observations from a re-analysis of the deposited data

Results flagged for a closer look

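A single library stood apart for 4 of the 54 values examined for a lone high or low library, by the gap to the nearest other library over the range of 4. Chance sets apart about 1 in 20 groups, and 6.02% of all tested genes met the same criterion. Library 2 was the low one for Rpl31 at 78.7 CPM, for Rpl36al at 49.7 CPM and for Rps15a at 35.3 CPM. Library 1 was the high one for Rplp2 at 103 CPM. Library 2 also had the highest share of Rn45s, 14.1% of gene counts, whose part in these values was not tested.

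Outside the gene counts, alignments that were not unique made up 8.33% of all counts listed. They were 5.93, 6.17, 5.76 and 5.75 times the members' summed counts in libraries 1 to 4. The files do not show from which genes these alignments came.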

How the results depend on the processing

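Of 101 alternative values, 87 kept their direction and side of the threshold or moved within the spread, 9 moved and 5 reversed. Values that kept their direction could still change much in size. Per kilobase of unshared windows, the log2 ratio went from 6.73 to 0.28 for Rps27l and from -0.29 to -4.16 for Rpl36al. For Rpl22l1 it went from -6.43 to -2.97. No paired analysis was possible because the libraries form 1 group. The Rpl3l to Rpl3 log2 ratio reversed to -2.02 per kilobase of unshared windows. The large minus small subunit difference reversed to -0.039 per kilobase of the longest transcript, to -0.27 per kilobase of unshared windows, to -0.044 with all members and to -0.36 per kilobase of the principal transcript, the last chosen after seeing the data. Members called numbered 1 without the filter on low counts and, also added later, 2 with libraries 1 and 4 only. The summed level was 17823 CPM without Rn45s in the total. The rank correlation between level and shared windows was 0.213 with 36-base windows, 0.113 with 75-base windows and, added later, 0.293 per kilobase of the principal transcript, 0.153 with all members, 0.186 with windows at other loci and 0.196 with both.

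Leaving out libraries 1 to 4 in turn gave 0 calls among the members each time, where 44, 69, 39 and 50 of all genes were called. Sums were then 15334 to 15786 CPM, rank correlations 0.167 to 0.170 and subunit differences 0.03 to 0.09. Log2 pair ratios were 0.77 to 0.84 for Rpl3l, -6.57 to -6.24 for Rpl22l1, -2.47 to -2.35 for Rpl7l1 and -7.76 to -7.49 for Rpl39l. They were -12.45 to -12.29 for Rpl10l, -0.31 to -0.27 for Rpl36al, 6.28 to 6.99 for Rps27l and -3.72 to -3.48 for Rps4y2. Windows were sought in annotated transcripts, not in a whole genome, so copies outside the annotation were missed and shares are lower bounds. The cause of the reversals, beyond the length used, was not tested.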
